A study of Mus musculus with 14 samples.

Results

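Autophagy genes were described here in paused mouse embryonic stem cells without Mettl3 and in WT cells: how much of their RNA was present, how much of it was newly made, and how fast the labelled part was lost. The 37 genes were taken by symbol from the deposited total and conversion count tables, and all 37 were found among 36335 named entries. Autophagy encloses cell contents in a double membrane, the autophagosome, which then fuses with the lysosome, where the contents are broken down. The ULK kinase complex starts the process and the class III phosphatidylinositol 3-kinase complex marks the forming membrane with the lipid PI3P. PI3P effectors and lipid transfer proteins make the membrane grow, 2 ubiquitin-like conjugation systems attach ATG8 proteins (LC3 and GABARAP) to it, and receptors tie cargo to the ATG8 proteins. The mTOR kinase holds the ULK complex in check in fed cells, so the state studied, in which mTOR is inhibited, is one in which autophagy is known to be active. Mettl3 is the catalytic subunit of the enzyme that writes m6A, a methyl mark that can shorten the life of an mRNA.

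All cells were of the E14 line and were held for 2 weeks on gelatin in serum and LIF with 200 nM INK128, an mTOR inhibitor, so that no group was free of the drug. Mettl3-KO cells gave 2 libraries at each of 0, 1, 3 and 8 h after a 12 h pulse of 100 µM S4U, a uridine analogue that enters new RNA. WT cells gave 2 libraries at 1 h and at 8 h, and 1 library at 0 h and at 3 h. After iodoacetamide treatment S4U appears as C in the 3' end libraries, so a T>C conversion marks RNA made during the pulse. The labels do not say how the Mettl3-KO cells were made, how many clones were used or whether replicates were separate cultures. The p-values therefore reflect only how far these samples spread, and that spread may be technical.

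The 12 libraries in the main fits, 7 of Mettl3-KO and 5 of WT cells, held between 6108102 and 26654217 total counts. The 2 others, Mettl3-KO 3 h replicate 2 with 602297 and WT 1 h replicate 2 with 49154 total counts, entered only where 14 libraries are named, and their labelled shares (6.90% and 8.43%) stood far below those of the other library of the same group and time (18.5% and 30.8%). Mettl3 itself was at 1.21 to 2.41 CPM (counts scaled by library size) in the 7 Mettl3-KO libraries, against 23.0 to 74.9 CPM in the 5 WT libraries, as the labels have it. The lines differed in more than Mettl3: Ddx3y, on the Y chromosome, was at 132 to 214 CPM in Mettl3-KO and 1.06 to 3.83 CPM in WT libraries, so loss of Mettl3 and other differences between the lines cannot be told apart in any comparison below. Of 7 stem cell markers, 6 reached 10 CPM in both genotypes, and Dppa5a stayed under 5 CPM in both. The 7 summed to 2020 to 3069 CPM in Mettl3-KO and 2773 to 3520 CPM in WT libraries. Their means leaned both ways, with overlap in the pairs given here. Esrrb averaged 366 ± 116 CPM in Mettl3-KO and 657 ± 67.2 CPM in WT. Zfp42 averaged 44.1 ± 18.7 CPM in Mettl3-KO and 26.4 ± 13.7 CPM in WT. Neural markers summed to 453 to 736 CPM in Mettl3-KO and 74.8 to 97.4 CPM in WT libraries, with 4 of 5 in Mettl3-KO and 3 of 5 in WT reaching 10 CPM and Nes under 5 CPM in every Mettl3-KO library. The 5 did not lie one way: Stmn2 averaged 465 ± 82.3 CPM in Mettl3-KO and 15.5 ± 3.74 CPM in WT, Tubb3 118 ± 23.6 CPM in Mettl3-KO and 12.9 ± 2.83 CPM in WT and Pax6 14.5 ± 4.36 CPM in Mettl3-KO and 3.22 ± 1.61 CPM in WT, each with the Mettl3-KO libraries above the WT libraries. Sox1 averaged 7.64 ± 3.15 CPM in Mettl3-KO and 49.5 ± 11.1 CPM in WT, with the Mettl3-KO libraries below the WT libraries, and Nes 2.37 ± 1.38 CPM in Mettl3-KO and 4.54 ± 2.48 CPM in WT, with overlap (SD, n = 7 and 5). Primitive endoderm markers summed to 6.07 to 16.1 CPM in Mettl3-KO, with Gata4, Gata6, Sox17 and Sox7 under 5 CPM in each library, and 24.6 to 32.7 CPM in WT, where Sox17 was under 5 CPM. Dab2, also in that list, averaged 7.83 ± 3.76 CPM in Mettl3-KO and 7.40 ± 2.90 CPM in WT, with overlap (SD, n = 7 and 5). Mesoderm and trophoblast markers summed to 7.01 to 9.87 CPM in Mettl3-KO and 6.95 to 11.01 CPM in WT, and fibroblast markers to 3.78 to 8.58 CPM and 8.72 to 19.8 CPM. The near-equal mesoderm and trophoblast sums hide means that lean both ways. Kdr averaged 6.53 ± 1.54 CPM in Mettl3-KO and 1.92 ± 1.34 CPM in WT. T averaged 0.814 ± 0.472 CPM in Mettl3-KO and 4.30 ± 2.27 CPM in WT, both with overlap. The part of these marker differences in the autophagy results was not tested. In such bulk libraries, fewer cells of a type and less RNA per cell cannot be told apart.

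The total RNA of 16 of the 37 autophagy genes differed between the genotypes, and 12 of the 16 were lower in Mettl3-KO cells. The lower genes included Map1lc3b, which encodes the most used marker of autophagosomes, the PI3P effector Wdr45 and the lipid kinase Pik3c3, while Bnip3, a receptor for mitochondria, was higher by more than any other member. Calls are at an edgeR adjusted p under 0.05 unless another tool is named. All 37 passed the count filter. The 4 higher members (Ulk2, Atg2b, Gabarapl1 and Bnip3) were 10.8% of the list, where 21.9% of all 14579 genes tested were called higher. The 12 lower members (Atg13, Atg14, Pik3c3, Wdr45, Atg4c, Atg7, Atg12, Map1lc3b, Gabarap, Sqstm1, Tax1bp1 and Calcoco1) were 32.4% of the list, against a background of 19.3%. The median log2 difference, Mettl3-KO over WT, was -0.34 over the members and 0.030 over all genes tested. The 21 members that were not called had log2 differences between -0.68 and 0.32. DESeq2 called the same 4 higher, against 24% of all genes, and the same 12 and Wipi1 lower, against 21.8%. With all 14 libraries the calls came down to 1 higher (Bnip3) and 6 lower (Atg13, Wdr45, Atg4c, Map1lc3b, Gabarap and Calcoco1), with backgrounds of 12.6% and 9.49%. Those 7 calls were kept under each of 18 alternatives tried. Every Mettl3-KO library lay above every WT library for Gabarapl1 and Bnip3, as for 13.1% of all genes, and below for Atg13, Pik3c3, Wdr45, Atg4c, Atg7 and Map1lc3b, as for 10.2% of all genes.

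**Figure D1:**
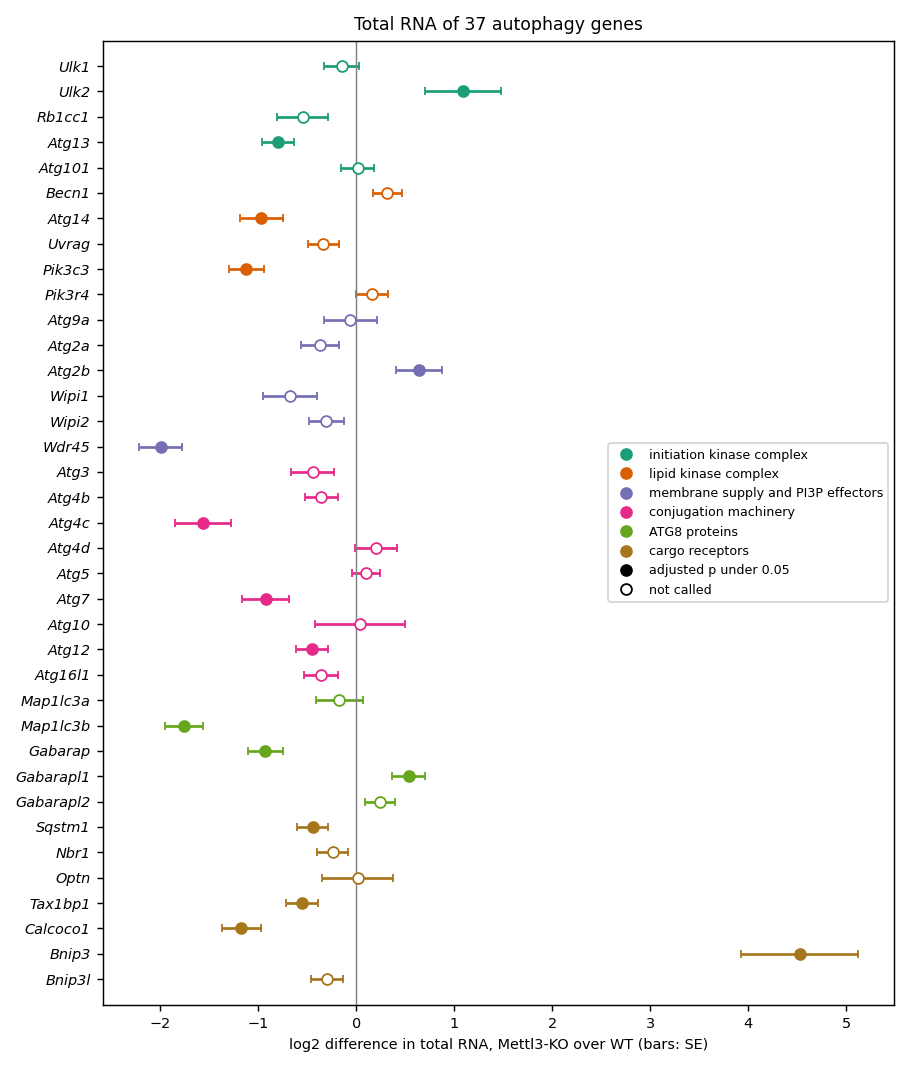
Log2 difference in total RNA between Mettl3-KO and WT libraries for the 37 autophagy genes, grouped by role from initiation at the top to cargo receptors at the bottom. Points are edgeR estimates from 7 Mettl3-KO and 5 WT libraries, bars are standard errors, and filled points have an adjusted p under 0.05: 4 lie to the right of 0 and 12 to the left.

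In the ULK kinase complex, 1 of 5 members was higher, 1 was lower and 3 were not called. Ulk2, a kinase related to Ulk1, had 3.33, 5.01 and 7.22 CPM as the lowest, median and highest of the Mettl3-KO libraries, and 1.59, 1.28, 3.82, 3.54 and 2.59 CPM in the WT libraries at 0, 1, 3, 8 and 8 h. In 6 of 7 Mettl3-KO libraries the level lay above the highest WT library. The log2 difference was 1.09 (SE 0.39, edgeR adjusted p = 0.0309). The Ulk2 call did not hold without WT 0 h replicate 1, Mettl3-KO 0 h replicate 2, WT 1 h replicate 1, Mettl3-KO 1 h replicate 1 or Mettl3-KO 8 h replicate 1 (log2 difference 0.81 to 1.01, edgeR adjusted p 0.0528 to 0.121), nor with 14 libraries (0.92, edgeR adjusted p = 0.167). Atg13, the subunit through which mTOR signals reach the complex, had 31.7, 46.3 and 60.4 CPM (lowest, median, highest) in Mettl3-KO libraries, against 62.9, 92.7, 81.2, 63.4 and 67.3 CPM in WT libraries. The groups did not overlap, and the log2 difference was -0.80 (SE 0.17, edgeR adjusted p = 9.25e-04). Ulk1, the main kinase, and the subunits Rb1cc1 (FIP200) and Atg101 were not called, with log2 differences of -0.15, -0.55 and 0.015. Rb1cc1 was called lower when WT 1 h replicate 1 or Mettl3-KO 1 h replicate 1 was left out (-0.76 and -0.65, edgeR adjusted p = 0.043 and 0.0496).

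In the lipid kinase complex, 2 of 5 members were lower. Pik3c3, the catalytic subunit (VPS34), had 23.8, 42.4 and 49.1 CPM (lowest, median, highest) in Mettl3-KO libraries, against 72.6, 78.1, 57.9, 86.4 and 73.2 CPM in WT libraries. The ranges were apart, and the log2 difference was -1.12 (SE 0.18, edgeR adjusted p = 8.67e-05). Atg14, which directs the kinase to the site where autophagosomes form, had 18.3, 23.5 and 48.1 CPM in Mettl3-KO libraries, against 43.3, 46.4, 46.1, 56.5 and 52.8 CPM in WT libraries. Here 6 of 7 Mettl3-KO libraries lay below the lowest WT library, and the log2 difference was -0.97 (SE 0.22, edgeR adjusted p = 0.0018). With 14 libraries neither was called (Pik3c3 -0.75, edgeR adjusted p = 0.176, and Atg14 -0.91, edgeR adjusted p = 0.0881). The shared subunits were not called: Becn1 (Beclin 1), at 68.9 ± 7.15 CPM in Mettl3-KO and 55.4 ± 6.18 CPM in WT libraries (SD, n = 7 and 5), and Pik3r4 (VPS15), at 59.0 ± 12.4 CPM and 50.8 ± 4.01 CPM. Uvrag, which takes the place of Atg14 in the complex that acts in endosome traffic, had a log2 difference of -0.34 and was not called.

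Among the genes that supply membrane or read PI3P, 1 of 6 was higher and 1 was lower. Wdr45 (WIPI4), on chromosome X, had 5.73, 13.7 and 23.5 CPM (lowest, median, highest) in Mettl3-KO libraries, against 64.9, 55.0, 47.5, 38.6 and 46.0 CPM in WT libraries. No Mettl3-KO library reached the lowest WT library, and the log2 difference of -1.99 (SE 0.22, edgeR adjusted p = 1.81e-06) was the largest fall in the list, to 0.251 times the WT level. Atg2b, one of a pair of lipid transfer proteins that bind WIPI proteins, had 9.35, 14.7 and 24.3 CPM in Mettl3-KO libraries, against 10.2, 7.66, 9.56, 11.9 and 8.98 CPM in WT libraries. The groups overlapped, with 4 of 7 Mettl3-KO libraries above the highest WT library, and the log2 difference was 0.64 (SE 0.23, edgeR adjusted p = 0.0347). That call was lost without Mettl3-KO 0 h replicate 1, WT 1 h replicate 1, Mettl3-KO 1 h replicate 1, WT 8 h replicate 1, WT 8 h replicate 2, Mettl3-KO 8 h replicate 1 or Mettl3-KO 8 h replicate 2 (log2 difference 0.51 to 0.62, edgeR adjusted p 0.0677 to 0.11) and with 14 libraries (0.56, edgeR adjusted p = 0.339). Its relative Atg2a (-0.37), the scramblase Atg9a (-0.062), and the PI3P readers Wipi1 (-0.68) and Wipi2 (-0.31) were not called by edgeR on the log2 scale, and DESeq2 called Wipi1 lower (-0.68, DESeq2 adjusted p = 0.0267). Wipi1 and Atg2a were both called lower without WT 1 h replicate 1 (log2 difference -1.02 and -0.58, edgeR adjusted p = 0.00466 and 0.0287) or without Mettl3-KO 1 h replicate 2 (-0.74 and -0.49, edgeR adjusted p = 0.0354 and 0.0216).

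In the conjugation machinery, 3 of 9 members were lower and none was higher at adjusted p under 0.05. Atg7, the E1-like enzyme that activates both ubiquitin-like systems, had 8.01, 10.1 and 11.3 CPM (lowest, median, highest) in Mettl3-KO libraries, against 14.8, 12.8, 17.8, 21.0 and 32.7 CPM in WT libraries. The groups did not overlap among these 12 libraries, and the log2 difference was -0.92 (SE 0.24, edgeR adjusted p = 0.0049). In Mettl3-KO 3 h replicate 2, the shallow library, Atg7 was at 98.6 CPM, and with 14 libraries the difference was -0.45, edgeR adjusted p = 0.597. Atg4c, a protease that trims ATG8 proteins, had 1.74, 4.12 and 5.96 CPM in Mettl3-KO libraries, against 9.99, 6.24, 12.1, 13.2 and 21.0 CPM in WT libraries. The ranges were apart, and the log2 difference was -1.56 (SE 0.29, edgeR adjusted p = 3.03e-04). Atg12, the ubiquitin-like protein that is joined to Atg5, had 39.2, 54.4 and 62.0 CPM in Mettl3-KO libraries, against 85.1, 60.98, 61.8, 73.4 and 54.8 CPM in WT libraries, and the ranges overlapped. Its log2 difference of -0.45 (SE 0.16, edgeR adjusted p = 0.0351) was not called without WT 0 h replicate 1, Mettl3-KO 0 h replicate 2, WT 8 h replicate 1, Mettl3-KO 8 h replicate 1 or Mettl3-KO 8 h replicate 2 (log2 difference -0.46 to -0.36, edgeR adjusted p 0.0605 to 0.124) or with 14 libraries (-0.20, edgeR adjusted p = 0.67). The other 6 were not called: the E2-like enzymes Atg3 (-0.45) and Atg10 (0.034), the proteases Atg4b (-0.36) and Atg4d (0.20), and Atg5 (0.10) and Atg16l1 (-0.36), which with Atg12 form the complex that places ATG8 on the membrane, all as log2 differences. Atg4b was called lower without WT 0 h replicate 1 (-0.50, edgeR adjusted p = 0.0337), and Atg16l1 without WT 8 h replicate 2 (-0.51, edgeR adjusted p = 0.0124). Atg10 was the rarest of the 9, with 23 to 60 counts in a Mettl3-KO library and 10 to 35 in a WT library, so a difference in it was hard to detect at this depth.

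The 5 ATG8 genes moved in both directions, with 2 lower, 1 higher and 2 not called. Map1lc3b (LC3B) had 43.0, 61.8 and 97.4 CPM (lowest, median, highest) in Mettl3-KO libraries, against 201, 222, 199, 183 and 238 CPM in WT libraries. The highest Mettl3-KO library was below the lowest WT library, and the log2 difference was -1.76 (SE 0.19, edgeR adjusted p = 1.66e-06), or 0.296 times the WT level. Gabarap, of the other ATG8 subfamily, had 55.1, 77.2 and 112 CPM in Mettl3-KO libraries, against 111, 185, 142, 104 and 177 CPM in WT libraries. Its ranges overlapped, with 6 of 7 Mettl3-KO libraries below the lowest WT library, and the log2 difference was -0.93 (SE 0.18, edgeR adjusted p = 6.29e-04). Gabarapl1, close to Gabarap in sequence, had 26.8, 33.3 and 47.8 CPM in Mettl3-KO libraries, against 25.9, 26.7, 23.0, 19.1 and 21.3 CPM in WT libraries. Each Mettl3-KO library was above each WT library, if by little at the closest point, and the log2 difference was 0.53 (SE 0.17, edgeR adjusted p = 0.0171). The Gabarapl1 call was lost without WT 1 h replicate 1 or Mettl3-KO 8 h replicate 2 (log2 difference 0.48 to 0.50, edgeR adjusted p 0.0518 to 0.0557) and with 14 libraries (0.54, edgeR adjusted p = 0.0691). Map1lc3a (LC3A), at 33.2 ± 6.48 CPM in Mettl3-KO and 37.5 ± 16.3 CPM in WT libraries (SD, n = 7 and 5), and Gabarapl2 (GATE-16), at 74.6 ± 10.6 CPM and 61.5 ± 7.32 CPM, were not called. Map1lc3b overlaps Zcchc14 in the RefSeq annotation, whose own log2 difference was 0.25 (SE 0.34, edgeR adjusted p = 0.586) on 5411 counts in all, against 21501 for Map1lc3b. Becn1, Atg4d and Atg12 likewise overlap Cntd1, Kri1 and Ap3s1. Whether the counting used strand, or how it split reads shared by close relatives, is not given in the sources used here, so reads from such places are uncertain.

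Among the cargo receptors, 1 of 7 was higher and 3 were lower. Bnip3, which sits on the outer mitochondrial membrane and is known as a target of the hypoxia factor HIF-1, had 12.7, 22.6 and 47.7 CPM (lowest, median, highest) in Mettl3-KO libraries, against 1.06, 1.42, 2.52, 0.197 and 0.457 CPM in WT libraries. Every Mettl3-KO library stood well above every WT library. The WT values rest on 3 to 29 counts in a library, against 213 to 1264 in a Mettl3-KO library, a 23.0-fold level. The log2 difference was 4.53 (SE 0.60, edgeR adjusted p = 1.07e-04), with 4.04 to 5.07 under the alternatives. Bnip3l (NIX), its closest relative and also a mitochondrial receptor, had 33.0, 48.3 and 61.3 CPM in Mettl3-KO libraries, against 63.3, 43.1, 58.2, 45.3 and 53.1 CPM in WT libraries, and its log2 difference was -0.30 (SE 0.17, edgeR adjusted p = 0.161). It was called lower without WT 1 h replicate 1 (-0.46, edgeR adjusted p = 0.0452). Calcoco1, a receptor for endoplasmic reticulum, had 34.0, 52.7 and 86.4 CPM in Mettl3-KO libraries, against 65.8, 191, 157, 89.1 and 121 CPM in WT libraries, a spread in which 5 of 7 Mettl3-KO libraries lay below the lowest WT library (log2 difference -1.17, SE 0.19, edgeR adjusted p = 1.28e-04). Tax1bp1 and Sqstm1 (p62) are receptors for ubiquitin-tagged cargo. Tax1bp1 had 65.8, 81.6 and 108 CPM in Mettl3-KO libraries, against 138, 105, 123, 106 and 144 CPM in WT libraries, with overlap (log2 difference -0.55, SE 0.16, edgeR adjusted p = 0.0111). It was not called with 14 libraries (log2 difference -0.51, edgeR adjusted p = 0.12). Sqstm1 had 95.1, 108 and 155 CPM in Mettl3-KO libraries, against 150.1, 184, 178, 126 and 157 CPM in WT libraries, also with overlap (log2 difference -0.45, SE 0.16, edgeR adjusted p = 0.0288). Its call was lost without WT 1 h replicate 1 or Mettl3-KO 8 h replicate 2 (log2 difference -0.45 to -0.44, edgeR adjusted p 0.052 to 0.0654) and with 14 libraries (-0.32, edgeR adjusted p = 0.541). The ubiquitin-binding receptors Nbr1 and Optn were not called (log2 difference -0.24 and 0.016).

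**Figure D2:**
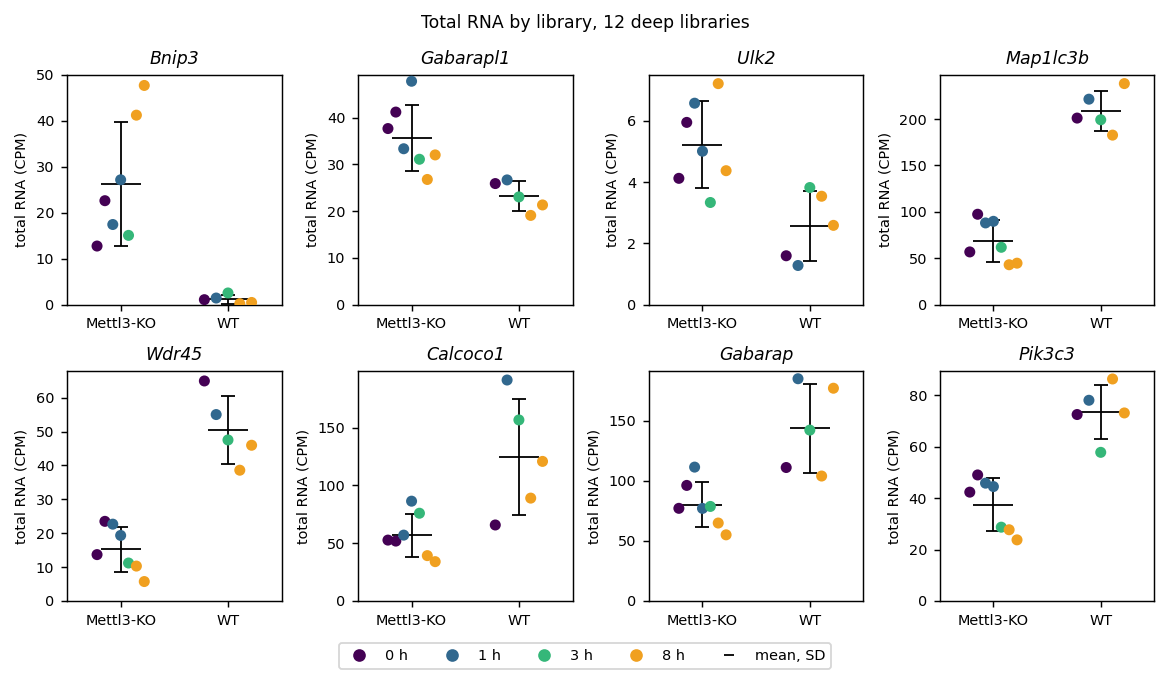
Total RNA in CPM by library for 8 autophagy genes, Mettl3-KO left of WT in each panel and coloured by hours of chase, with the mean and SD of the 7 Mettl3-KO and 5 WT libraries. Bnip3 and Gabarapl1 lie higher in all Mettl3-KO libraries, Map1lc3b, Wdr45 and Pik3c3 lie lower in all of them, and Ulk2, Calcoco1 and Gabarap overlap between the genotypes.

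The promoters of Bnip3, the member that differed most, and of Map1lc3b, the lower member with the smallest p, are shown because both are known to be switched by factors that read short motifs. TFEB, a driver of autophagy genes that mTOR holds back, reads CACGTG, and HIF-1 reads a short core of which ACGTG is a common form. The sequences are from RefSeq on GRCm38.p6, 250 bases before to 50 after the start, and capitals mark CACGTG. Bnip3 is at chr7:138909457-138909756 on the minus strand and Map1lc3b at chr8:121590188-121590487 on the plus strand.
Bnip3: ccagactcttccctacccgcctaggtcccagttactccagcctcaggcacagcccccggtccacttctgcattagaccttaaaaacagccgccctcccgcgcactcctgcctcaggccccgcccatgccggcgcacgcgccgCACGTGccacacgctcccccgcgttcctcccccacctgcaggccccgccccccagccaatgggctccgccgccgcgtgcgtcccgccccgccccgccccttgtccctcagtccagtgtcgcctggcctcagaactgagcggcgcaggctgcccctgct
Map1lc3b: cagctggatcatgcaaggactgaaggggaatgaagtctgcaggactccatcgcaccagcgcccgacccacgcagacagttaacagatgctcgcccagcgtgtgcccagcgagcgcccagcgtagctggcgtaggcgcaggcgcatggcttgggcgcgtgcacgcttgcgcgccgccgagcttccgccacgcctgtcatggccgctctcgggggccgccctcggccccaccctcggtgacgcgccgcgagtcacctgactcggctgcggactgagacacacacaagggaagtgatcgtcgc
The motif in Bnip3 begins at position -108 from the start of transcription, and the window of Map1lc3b holds neither CACGTG nor ACGTG on either strand. Other forms of the HIF-1 core were not searched for. Promoters were found for 30 of the 37 members. CACGTG was in 5 of the 30 (16.7%), namely Atg14, Atg3, Atg5, Atg7 and Bnip3, and in 8.09% of all genes with a promoter in the table. ACGTG was in 15 members, 50%, and in 21.8% of all genes, counted on both strands, and each CACGTG holds it too. Of the 5 members with CACGTG, Atg14 and Atg7 were lower, Bnip3 was higher, and Atg3 and Atg5 were not called. Member promoters were richer in G and C, with a median of 61.7% against 52.7% over all promoters. The part of this in the motif shares was not tested, and a match is a run of letters and not a bound site.

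Outside the 37, 33 further autophagy genes were looked up and 32 were tested, of which 7 were higher and 9 lower in Mettl3-KO cells, with a median log2 difference of 0.021. Over all genes tested, 21.9% were higher and 19.3% lower. The higher ones with the smallest p were Atg16l2, a relative of Atg16l1, at 10.7 to 21.1 CPM in Mettl3-KO and 1.74 to 5.78 CPM in WT libraries (log2 difference 2.16, SE 0.29, edgeR adjusted p = 1.30e-05), the endoplasmic reticulum receptor Sec62 (log2 difference 0.96), the mitochondrial receptor Fundc1 (1.36) and the Becn1 partner Ambra1 (0.82). The lower ones with the smallest p were Sh3glb1 (BIF-1), which binds the lipid kinase complex through Uvrag, at 31.8 to 45.3 CPM in Mettl3-KO and 66.4 to 81.5 CPM in WT libraries (log2 difference -0.94, SE 0.14, edgeR adjusted p = 5.63e-05), the Becn1 partner Rubcn (-0.99), the scaffold Wdfy3 (ALFY, -0.87) and the endoplasmic reticulum receptor Ccpg1 (-0.74). With 14 libraries, 4 of the 32 were higher, the same Atg16l2, Sec62, Fundc1 and Ambra1, and 1 was lower (Pink1), against backgrounds of 12.6% and 9.49%.

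Few members changed in total RNA over the chase. In Mettl3-KO cells 4 of 37 fell with the hours, Pik3c3, Wipi1, Wdr45 and Map1lc3b, or 10.8%, against a background of 2.22%. By edgeR 0 rose (3 at an unadjusted p under 0.05), against 2.15%, and DESeq2 called 1 riser, Atg2b, against 3.57%, and 6 that fell, the 4 with Atg13 and Bnip3l, against 4.27%. The slopes were -0.22 (SE 0.047, edgeR adjusted p = 0.0173) log2 units an hour for Wipi1, -0.18 (SE 0.040, edgeR adjusted p = 0.0233) for Wdr45, -0.12 (SE 0.031, edgeR adjusted p = 0.0341) for Map1lc3b and -0.11 (SE 0.029, edgeR adjusted p = 0.0392) for Pik3c3. For Wipi1 the Mettl3-KO libraries in order of chase time (0, 0, 1, 1, 3, 8 and 8 h) had 11.8, 11.5, 15.1, 16.2, 9.40, 4.40 and 3.996 CPM, against 15.5, 10.8, 19.0, 10.2 and 11.1 CPM in WT libraries, so that the 8 h Mettl3-KO libraries were the lowest. Map1lc3b in the same Mettl3-KO libraries had 56.8, 97.4, 88.1, 89.8, 61.8, 43.0 and 44.6 CPM and Wdr45 had 13.7, 23.5, 22.7, 19.3, 11.2, 10.3 and 5.73 CPM, again lowest at 8 h. The 2 Mettl3-KO libraries at 8 h carry E15 and E16 in the source field of their labels, where all others carry E14, while their cell line field reads E14. None of these 4 calls held without Mettl3-KO 8 h replicate 1 or without Mettl3-KO 8 h replicate 2 (count 0 in each case), and 1 (Wipi1) was left without Mettl3-KO 1 h replicate 1 and 2 (Wipi1 and Wdr45) without Mettl3-KO 0 h replicate 2. Over all genes, 15 of 14478 and 1 of 14334 fell without Mettl3-KO 8 h replicate 1 and replicate 2. Without Mettl3-KO 1 h replicate 1 and Mettl3-KO 0 h replicate 2, 116 of 14286 and 312 of 14361 genes fell, against 324 of 14579 with the 12 libraries. With 14 libraries there was none, as for 0% of all 14641 genes in both directions, and in the shallow Mettl3-KO 3 h library Wipi1 was at 149 CPM. In WT cells edgeR called 0 members, with a background of 0% in both directions, and 5 members had an unadjusted p under 0.05. DESeq2 also called 0 in WT, against 0.0755% rising and 0.178% falling over all genes. The difference in slope between the genotypes was called for 0 members (7 at an unadjusted p under 0.05), against backgrounds of 0.24% higher and 0.309% lower. DESeq2 called 1, Bnip3, as higher, against 1.77% of all genes, and so did edgeR without WT 0 h replicate 1 or with no count filter. Over the 12 libraries its edgeR slope difference was 0.40 log2 units an hour (SE 0.12, edgeR adjusted p = 0.123).

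At the end of the pulse the labelled share, the conversion count as a percent of the gene's total count, was lower in both Mettl3-KO libraries than in the WT library for 36 of 37 members, with Atg9a as the exception. Its median over the members was 28.5% in Mettl3-KO (range 18.3% to 48.7%) and 48.6% in WT (24.6% to 61.7%). The libraries as a whole lay the same way, at 26.1% and 26.6% in Mettl3-KO, against 39.4% in WT. The count of 36 was not made over all genes, so it does not set the members apart. Gabarapl2 had 33.9% and 34.8% in Mettl3-KO and 61.7% in WT. Gabarap had 15.5% and 24.0% in Mettl3-KO and 37.4% in WT, and Sqstm1 had 33.9% and 34.7% in Mettl3-KO and 48.4% in WT. All 3 were lower in both Mettl3-KO libraries, as the libraries were. The fitted log2 difference in share at 0 h had a median of -0.45 over the members and -0.44 over all 12669 genes tested. By edgeR 0 of 37 members were called lower, against a background of 0.126%, and 0 higher, as 0% of all genes. At an unadjusted p under 0.05 there were 5 lower members (Pik3r4, Map1lc3a, Gabarap, Gabarapl2 and Optn), and DESeq2 called 1, Gabarap, against 0.497% of all genes. For Gabarap the fitted difference was -1.21 (SE 0.35, edgeR adjusted p = 0.185). WT had a single library at 0 h, which limits what this comparison can detect.

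Labelled RNA of nearly all members was lost over 8 h in both genotypes. It fell in 35 of 37 members in Mettl3-KO cells, where 89.6% of all genes fell, and in 35 of 37 in WT cells, where 91.5% fell. It rose in 0 members in the main edgeR fit in either genotype (0 also at an unadjusted p under 0.05), against backgrounds of 0.0237% in Mettl3-KO and 0.0553% in WT. The exceptions were Map1lc3a and Atg4c in Mettl3-KO and Ulk2 and Bnip3 in WT cells. In Mettl3-KO cells the median slope of the members was -0.52 log2 units an hour, a half-life of 1.94 h, and in WT cells it was -0.55, a half-life of 1.81 h, with no correction for cell division. The median share at 1, 3 and 8 h was 30.7%, 19.4% and 2.15% in Mettl3-KO, against 35.5%, 19.9% and 2.29% in WT. The Mettl3-KO share started lower, held over the first hour and met the WT share by 3 h. At 1 h the share was at or above its 0 h value for 23 members in Mettl3-KO and 5 in WT. That count was not made over all genes. The libraries as a whole took the same course. Mettl3-KO libraries were at 26.1% and 26.6% at 0 h, 25.2% and 26.7% at 1 h and 18.5% at 3 h. WT libraries were at 39.4%, 30.8% and 19.9% at those times. The label of the WT exceptions rests on few conversion counts: Bnip3 had 10, 1, 14, 0 and 1 in the WT libraries at 0, 1, 3, 8 and 8 h. With only the 0, 1 and 3 h libraries edgeR called loss of label for 0 members in Mettl3-KO (4 at an unadjusted p under 0.05), against a background of 1.22%, and for 6 in WT cells, against 17.3%.

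**Figure D3:**
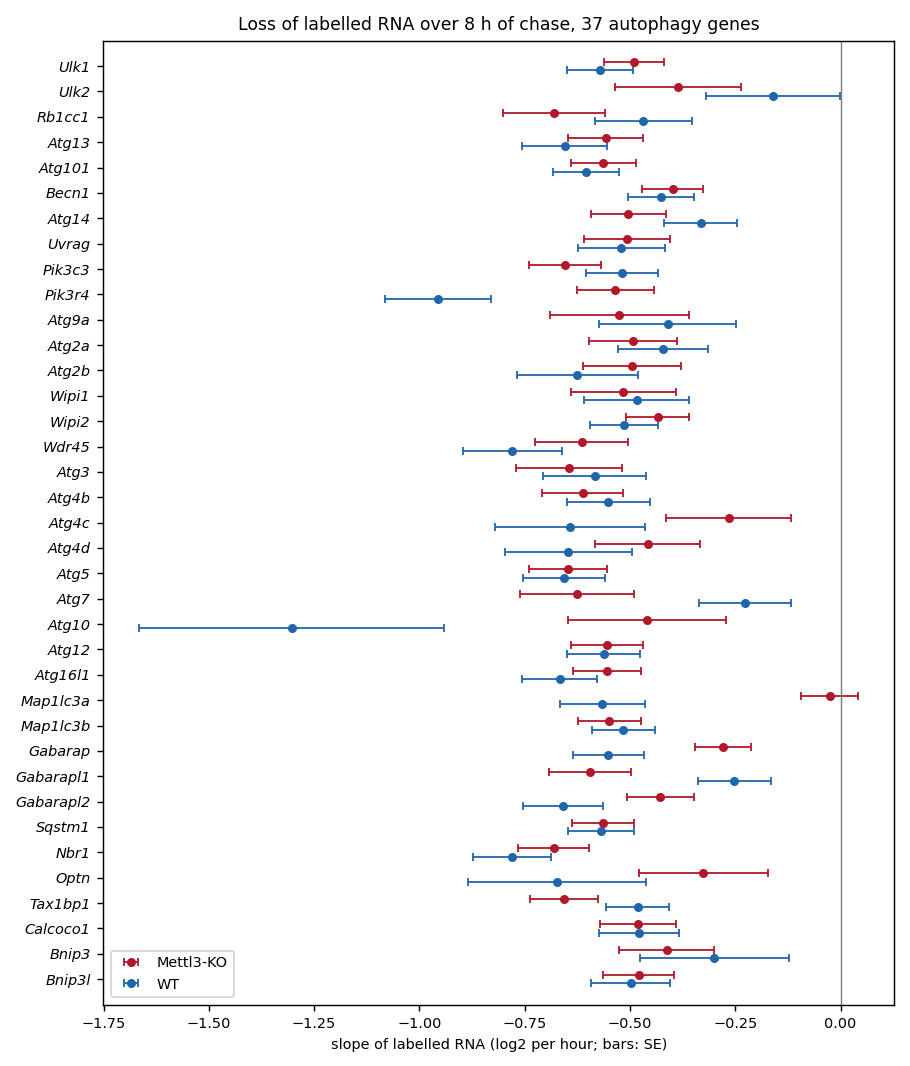
Slope of labelled RNA over the chase, in log2 units per hour, for each of the 37 autophagy genes, with Mettl3-KO above WT in each row and bars for standard errors of the edgeR fit to 7 Mettl3-KO and 5 WT libraries. Values further left mean faster loss. Most pairs lie close together, and Map1lc3a in Mettl3-KO is the point nearest to 0.

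The loss rate differed between the genotypes for 1 of the 37 members, Map1lc3a, whose label was lost more slowly in Mettl3-KO cells. That is 2.70% of the members, against a background of 5.5% of genes with slower loss in Mettl3-KO, and faster loss was called for 0 members by edgeR, against 0.379%. At an unadjusted p under 0.05 there were 2 faster members, and DESeq2 called 1 faster, Gabarapl1, against 0.639% of all genes, and 3 slower, Map1lc3a, Gabarap and Pik3r4, against 8.29%. The labelled share of Map1lc3a at 0, 0, 1, 1, 3, 8 and 8 h was 18.1, 20.9, 18.0, 23.7, 12.1, 17.1 and 10.7% in Mettl3-KO libraries, on 70, 124, 146, 137, 84, 72 and 121 conversion counts. In the WT libraries at 0, 1, 3, 8 and 8 h it was 31.1, 28.8, 17.4, 2.68 and 1.25%, on 193, 91, 64, 7 and 5 conversion counts. At 8 h the Mettl3-KO shares were thus several times those of WT, while at 0 h they were lower. The fitted slope was -0.026 log2 units an hour in Mettl3-KO (SE 0.068, edgeR adjusted p = 0.713) and -0.57 in WT (SE 0.10, edgeR adjusted p = 1.17e-06), the second a half-life of 1.77 h. The difference of 0.54 (SE 0.12, edgeR adjusted p = 0.00254) kept its call without each of the 12 libraries in turn and in 21 of 22 alternatives in all. With the 0, 1 and 3 h libraries alone it was 0.089 (edgeR adjusted p = 0.942), and it was not called. Map1lc3a was the one member with a mean share above 10% at 8 h in Mettl3-KO, and in WT 2 members were above it, Gabarapl1 among them.

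**Figure D4:**
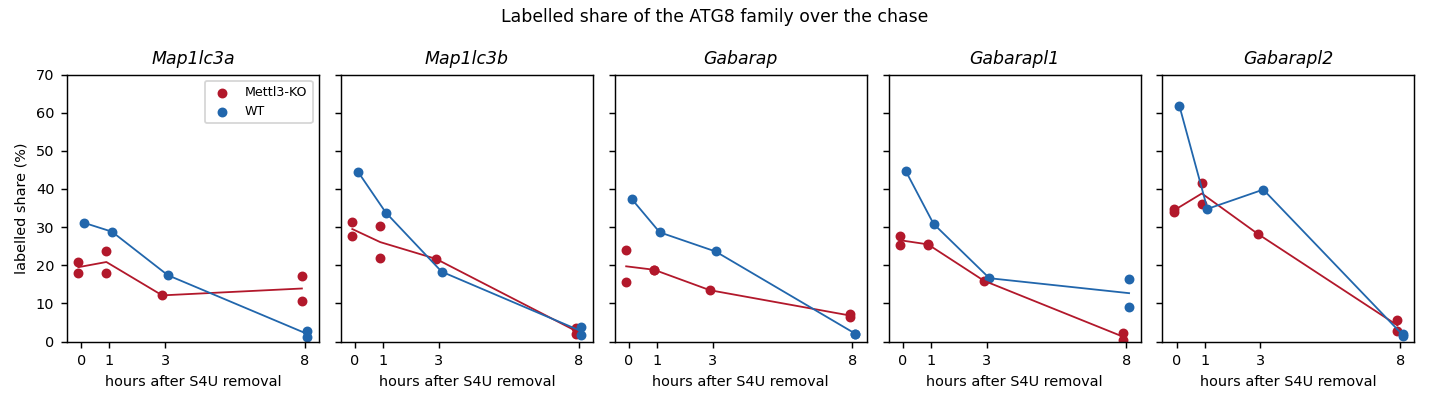
Labelled share, in percent of a gene's total counts, against hours after S4U removal for the 5 ATG8 genes, Mettl3-KO in red and WT in blue, with a point for each of the 12 deep libraries and lines through the means. Map1lc3a ends at 17.1% and 10.7% in Mettl3-KO and at 2.68% and 1.25% in WT, and Gabarapl1 ends lower in Mettl3-KO than in WT.

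Within the ATG8 family the loss rates did not all lean one way. Gabarap at 8 h had shares of 7.32% and 6.36% in Mettl3-KO and 2.08% and 2.06% in WT libraries, with a loss rate difference of 0.27 (SE 0.10, edgeR adjusted p = 0.0915). Gabarapl1 at 8 h had 0.329% and 2.12% in Mettl3-KO and 8.93% and 16.4% in WT libraries, with a difference of -0.34 (SE 0.12, edgeR adjusted p = 0.0832). Neither difference was called in the main edgeR fit, and DESeq2 called both (Gabarap adjusted p = 0.0352, Gabarapl1 adjusted p = 0.0255). Limma on the authors' normalized values also called both. Among the edgeR alternatives, Gabarap was called slower with the gene's own total as offset. Gabarapl1 was called faster with TMM on the conversion counts. Map1lc3b had half-lives of 1.82 h in Mettl3-KO and 1.94 h in WT, and Gabarapl2 had 2.34 h in Mettl3-KO and 1.52 h in WT. The lower total RNA of Map1lc3b, Wdr45, Pik3c3, Calcoco1 and Atg13 in Mettl3-KO went with loss rate differences of -0.033, 0.16, -0.14, -0.0026 and 0.10 log2 units an hour, none of them called by edgeR or DESeq2. Of the other lower members, Gabarap was called slower by DESeq2. Atg14, Atg4c, Atg7, Atg12, Sqstm1 and Tax1bp1 had DESeq2 differences of -0.17, 0.39, -0.41, 0.0071, 0.0035 and -0.18. None of those was called by the main edgeR fit or by DESeq2. DESeq2 gave no adjusted p for Atg4c, nor for Ulk2, Atg9a, Atg10 and Optn. Limma called Atg7 faster, and edgeR with TMM on the conversion counts called Tax1bp1 faster. Whether loss rates had a part in the total RNA differences was not tested. The higher total RNA of Bnip3 went with a difference of -0.11 (SE 0.24, edgeR adjusted p = 0.835). Pik3r4 had a difference of 0.42 (SE 0.15, edgeR adjusted p = 0.0826) and half-lives of 1.87 h in Mettl3-KO and 1.05 h in WT. It was called slower in Mettl3-KO by DESeq2 (0.48, DESeq2 adjusted p = 0.019), and by edgeR without WT 0 h replicate 1 (0.62, edgeR adjusted p = 0.0153) or WT 3 h replicate 1 (0.53, edgeR adjusted p = 0.0167), and Gabarap without WT 0 h replicate 1 (0.36, edgeR adjusted p = 0.0278), which makes 3 and 2 slower members in place of 1. The 36 members that edgeR did not call lay between -0.40 (Atg7) and 0.84 (Atg10). Atg10 had half-lives of 2.18 h in Mettl3-KO and 0.767 h in WT, on few counts, and Atg7 had 1.60 h in Mettl3-KO and 4.42 h in WT (loss rate difference -0.40, edgeR adjusted p = 0.151). Over all 37 members the median difference was 0.013 log2 units an hour, and over all genes tested it was 0.10. Of the 32 further autophagy genes, 1 was called, Phb2, an inner mitochondrial membrane receptor, with slower loss in Mettl3-KO (difference 0.23, SE 0.075, edgeR adjusted p = 0.0448), against 5.5% of all genes. That call was not kept with 14 libraries.

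The authors' deposited table of fitted half-lives, whose header gives no unit, lists 26 of the 37 members. In the authors' deposited table the value is longer in Mettl3-KO than in WT for 23 of the 26 (88.5%), as for 83.4% of the 6985 genes listed. The medians of the authors' deposited table are 2.71 in Mettl3-KO and 1.75 in WT for the members, and 2.52 and 1.69 for all genes listed. The 3 members with the shorter value in Mettl3-KO in the authors' deposited table are Atg7 (1.22 in Mettl3-KO and 3.60 in WT), Gabarapl1 (1.99 and 3.39) and Rb1cc1 (1.94 and 2.09). These 3 also had negative differences in the edgeR fit. The directions did not match for every member. Among others, Map1lc3b, Pik3c3, Atg2a, Atg3 and Calcoco1 have longer values in Mettl3-KO in the authors' deposited table, but negative differences in the edgeR fit. Map1lc3b is listed there with 3.61 in Mettl3-KO and 1.95 in WT, Wdr45 with 2.38 and 1.35, and Pik3c3 with 2.10 and 2.02. Map1lc3a, Gabarap, Bnip3, Ulk1 and Ulk2 are among the members not listed.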

How the data were processed

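Total counts and T>C conversion counts per gene symbol were taken from whole-number tables deposited by the authors for 14 libraries. Tools and build, per the submitters' processing notes, were edgeR 3.32.1, featureCounts in Subread 1.5.0, Trim Galore 0.4.0 and mm10. The unit of a conversion count (read or base) is not given in the sources used here. A deposited table of log2 values, normalized by the authors, was used in an alternative. Half-lives, other values fitted by the authors, were copied from their table, whose fit correlations, a score column deposited by the authors, were not used.

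Tests were quasi-likelihood F tests (edgeR 4.0.16, R 4.3.3; robust, TMM) over all genes on the 12 libraries with at least 1000000 total counts. Total RNA was fitted with genotype and time as a factor, or genotype by hours, for genes reaching 10 counts in 6 or more libraries. Labelled share at 0 h (offset the gene's own total plus 0.5) and loss of label (offset the TMM-scaled library total) were fitted with genotype by hours for genes reaching 10 conversion counts in 3 or more libraries. A Benjamini-Hochberg adjusted p under 0.05 was a call, and SE is the log2 effect over the square root of F. Half-life is -1 over the slope. CPM uses TMM-scaled totals. Groups came from the titles. The fits were tested on simulated counts. Alternatives were 14 libraries, other filters, RLE, DESeq2 1.42.0, limma 3.58.1, other offsets, other chase times, a replicate block and leaving out each library. The 37 genes, the further autophagy genes, the marker lists and the tests were chosen with earlier results of these data known. All 37 could be named, and of the further genes up to 4 per direction with the smallest p. An entry without a gene name, 0.00707% to 0.0312% of a library, was left out.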

Additional observations from a re-analysis of the deposited data

Results flagged for a closer look

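Map1lc3a, which encodes the ATG8 protein LC3A, had a loss of label over the chase that differed between the genotypes by the test of the difference itself. The loss rate difference, Mettl3-KO minus WT, was 0.54 log2 units an hour (SE 0.12, edgeR adjusted p = 0.00254), with slower loss in Mettl3-KO. With the 0, 1 and 3 h libraries alone it was 0.089 and was not called, so the call depends on the 8 h libraries. The WT shares at 8 h rest on few conversion counts. The Mettl3-KO libraries at 8 h are those whose source field differs from the others. At 8 h its labelled share was 17.1% and 10.7% in the Mettl3-KO libraries, and 2.68% and 1.25% in the WT libraries. The whole libraries were then at 4.90% and 4.97% in Mettl3-KO, and 4.52% and 3.72% in WT.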

How the results depend on the processing

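Percentages in parentheses are shares of all genes called in that direction. With all 14 libraries, 1 member was higher (12.6%) and 6 were lower (9.49%) in total RNA in Mettl3-KO, and 0 changed in total RNA over the chase in Mettl3-KO (0% in both directions). DESeq2 gave 7 such changes, 1 slope difference (1 also with no count filter, 1.7%), 1 member with a lower labelled share (0.497%), and 3 with slower (8.29%) and 1 with faster loss (0.639%) in Mettl3-KO. Labelled RNA at 0 h on the library scale gave 1 higher (1.65%) and 4 lower members (8.67%). The 0, 1 and 3 h libraries gave 4 members with a lower share (11.4%), label loss in 0 members in Mettl3-KO (1.22%) and 6 in WT (17.3%), and 0 with slower loss in Mettl3-KO (0%). Slower loss was called for 2, Map1lc3a and Gabarap (5.87%), with the gene's own total as offset. With limma on the authors' normalized values it was called for 4, Pik3r4, Map1lc3a, Gabarap and Gabarapl2 (15%). Limma called faster loss for 2, Atg7 and Gabarapl1 (0.658%). TMM on the conversion counts, which by its construction takes out the loss shared by a library, gave label loss in 6 members in Mettl3-KO (11.1%) and 2 in WT (3.28%). It gave faster loss in 2, Gabarapl1 and Tax1bp1 (1.58%), and slower loss in 1, Map1lc3a (2.98%). RLE gives no labelled share, whose offset is the gene's own total. Leaving out each library in turn gave 1 to 4 higher and 10 to 15 lower members in total RNA. Over all 14286 to 14511 genes these fits called 2443 to 3006 higher and 2337 to 2861 lower. Over the chase 0 to 5 members changed in Mettl3-KO, where 0 to 395 genes rose and 1 to 382 fell. In WT 0 to 0 members changed, where 0 to 7 genes rose and 0 to 47 fell. Slopes differed for 0 to 1 members, and were higher for 0 to 207 genes and lower for 0 to 93. Labelled share gave 0 to 0 members in either direction, and 0 to 1 genes higher and 7 to 43 lower of 12347 to 12666. Label loss was called for 31 to 35 members and 9655 to 11430 genes in Mettl3-KO. In WT it was called for 32 to 36 members and 10313 to 11673 genes. Slower loss was called for 1 to 3 members and 360 to 860 genes, and faster for 0 to 0 and 5 to 81. Replicate numbers showed no pairing of the genotypes at 8 h (r = -0.0095 across 14579 genes, where genes are not independent replicates). The other times lacked 2 deep libraries in each genotype, so pairing could not be checked there. The replicate block gave 4 higher (21.7%) and 12 lower members (18.8%) in total RNA, with Atg12 lost and Wipi1 gained. It gave label loss in 35 members in Mettl3-KO (89.3%) and 34 in WT (90.5%), and 1 with slower loss (4.89%).

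Slopes of labelled RNA changed sign, in log2 units an hour, only under 2 of the alternatives. With TMM on the conversion counts they were in Mettl3-KO 0.027 for Ulk2, 0.030 for Becn1, 0.40 for Map1lc3a, 0.15 for Gabarap, 0.0064 for Gabarapl2, 0.10 for Optn and 0.024 for Bnip3. In WT they were 0.043 for Rb1cc1, 0.087 for Becn1, 0.18 for Atg14, 0.082 for Atg9a, 0.090 for Atg2a, 0.024 for Wipi1, 0.29 for Atg7, 0.26 for Gabarapl1, 0.034 for Tax1bp1, 0.048 for Calcoco1 and 0.013 for Bnip3l. With the 0, 1 and 3 h libraries they were in Mettl3-KO 0.0030 for Uvrag, 0.0030 for Wipi1, 0.015 for Gabarapl2 and 0.13 for Calcoco1, and in WT 0.15 for Calcoco1. These slopes rest on fewer libraries. The slopes with TMM on the conversion counts are relative to the loss shared by a library, and their median over all genes was -0.053 in Mettl3-KO and -0.054 in WT. On that scale edgeR called rises for Map1lc3a and Gabarap in Mettl3-KO, against 13% of all genes, and for Gabarapl1 in WT, against 5.29%. Depth limited the rare members Atg10, Optn and Ulk2, and Bnip3 in WT, and the single WT libraries at 0 h and 3 h limited each test of label.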
